A study of Mus musculus with 15 samples.

Results

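Culture of 21EM15 cells as 3D spheroids was compared with culture of the same cells in 2D, over all 11677 genes of the culture data set. The members are 4 samples labelled WT_2D and 4 labelled WT_3D, out of 15 samples in the series. 21EM15 is an immortalized mouse lens epithelial line, so that all 8 samples come from 1 line labelled WT, with no treatment other than the culture format. A 2D sample was a cell culture dish taken before confluence. A 3D sample was a pool of spheroids that had formed and grown in round-bottom wells coated with Polyhema, a polymer to which cells do not adhere, in the same serum-containing medium. The formats also differ in cell density and time in culture, and these cannot be told apart from the third dimension. Per the study's methods each replicate had its own dish or its own pool of spheroids, but no source used here says whether these were started from separate passages or on separate days, so the p-values measure the spread between dishes or pools of 1 line. RNA came from bulk samples, in which a lower number of cells of one kind and less RNA per cell cannot be told apart.

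The lens epithelium is a monolayer under the lens capsule, a thick basement membrane, and its cells leave the cell cycle before they elongate into fibers. In 2D culture, cells attach to plastic, spread and divide, whereas cells kept from adhering make contact with each other and with the matrix they secrete. Interferon-stimulated genes, which most cells induce through receptors that signal to IRF9, restrict viruses, while lysosomal enzymes break down material that cells take up or degrade from within.

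Depth was similar between the groups, with 7305053 to 9362587 reads in a 2D sample and 7727642 to 8364276 in a 3D sample. Taken as the smallest signal, 3 reads corresponded to 0.312 to 0.409 CPM (the reads of a gene scaled to a library size of the sample). Of the markers of the lens epithelium, 11 of 16 were measured, at a summed 1011 to 1611 CPM in 2D and 2508 to 3082 CPM in 3D. Of these 1 was higher, *Dkk3*, a secreted protein of the Dickkopf family, with a mean of 225 CPM in 2D and 1009 CPM in 3D, and it lost its call in 5 of the 8 fits without 1 sample (adjusted p of up to 0.0167). At an unadjusted p under 0.05 in limma, 8 of the 11 epithelial markers were higher and 0 lower, and their median log2 fold change was 0.69. Of 20 listed lens fiber markers 1 was measured, at 3.25 to 9.26 CPM, a list that does not hold *Prox1*, which stood in the epithelial list. Of the fibroblast markers 14 of 18 were measured, at a summed 14060 to 19777 CPM in 2D and 15139 to 17629 CPM in 3D, and 6 of them were higher in 3D (42.9%, against 2.92% of all genes), among them *Dcn*, *Postn*, *Col3a1* and *Thy1*. The number was 4 without both samples numbered 2, 2 without the 2D replicate 4 or the 3D replicate 1, 3 without the 3D replicate 2 and 1 without the 3D replicate 3 or 4. None of the 14 was called lower, but 2 had log2 fold changes below 0, down to -1.47. For 1 of these every 3D sample lay below every 2D sample. *Dcn*, *Col3a1* and *Thy1* lost their call in 4, 4 and 7 of the 8 fits without 1 sample (adjusted p of up to 0.0144, 0.0183 and 0.0295), and *Thy1* was not called without both samples numbered 2. *Dcn* was among the genes that were low in the 2D replicate 3, and its log2 fold change was 5.86 with and 4.74 without that sample. The part of these markers in the matrix differences was not tested. Leukocyte markers were represented by 1 of 17 genes at no more than 1.64 CPM, and endothelial and keratinocyte markers by 1 gene each that was not called. Single genes of 3 other lists were higher. They were *Mitf*, the 1 measured of 12 retina and pigment epithelium markers, at 5.72 to 9.96 CPM in 2D and 30.0 to 41.1 CPM in 3D, *Notch3*, 1 of 4 measured smooth muscle and pericyte markers, and *Cebpa*, 1 of 2 measured adipocyte markers, with 11, 6, 1 and 3 reads in 2D and 64, 27, 65 and 59 in 3D. The summed level was 795 to 4003 CPM in 2D and 1064 to 1470 CPM in 3D for the smooth muscle list, and 6.24 to 15.2 and 10.6 to 17.4 CPM for the adipocyte list. *Cebpa* rose by 3.18 ± 0.51 on the log2 scale (SE, adjusted p = 0.0029) and was not called without the 3D replicate 1, 3 or 4 (adjusted p of up to 0.0155). The part of these lists in the differences was not tested. The leukocyte gene *Ptprc*, the endothelial genes *Pecam1* and *Cdh5* the pigment epithelium gene *Rpe65*, the smooth muscle gene *Myh11*, the adipocyte gene *Adipoq* and the crystallin *Cryaa* were not among the genes analysed here.

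Samples stood apart from their groups in 2 ways. In the 2D replicate 3, 102 genes lay more than 2 log2 units below every other sample, against at most 9 in any of the other samples. *Prox1*, a homeodomain factor of lens fiber differentiation, had 330, 327, 1 and 355 reads in the 2D samples and 716, 745, 705 and 562 in 3D. *Timp3*, an inhibitor of metalloproteinases, had 1326, 1280, 17 and 1255 reads in 2D and 1544 to 2782 in 3D. In both samples numbered 2, on the other hand, 215 genes lay more than 1 log2 unit below every other sample of their own group, against 1 to 7 genes for the other numbers. *Ctnnd1*, which encodes the catenin p120, had 759, 5, 148 and 369 reads in 2D and 205, 14, 198 and 143 in 3D. For *Cdk1*, a kinase that drives mitosis, the 2D samples had 3179, 116, 3201 and 4228 reads and the 3D samples 1128, 164, 961 and 859. Counts without both samples numbered 2 are therefore also given for all genes and for some of the lists. Values without the 2D replicate 3 are given for the named genes that were among the 102.

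**Figure D1:**
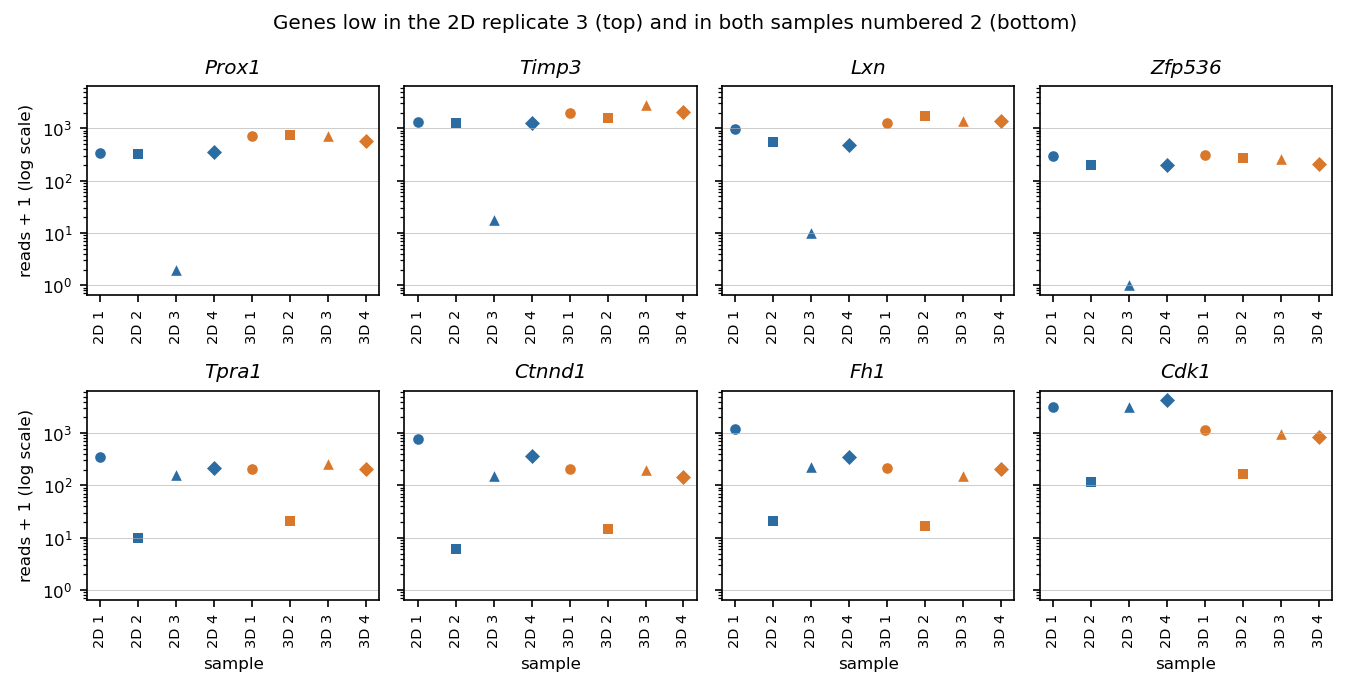
Reads + 1 on a log scale (y axis) in each of the 8 samples (x axis) for 4 genes that were low in the 2D replicate 3 (top) and 4 genes that were low in both samples numbered 2 (bottom), with 2D in blue and 3D in orange. *Prox1* falls to 1 read in the 2D replicate 3 and *Ctnnd1* to 5 and 14 reads in the samples numbered 2.

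Of the 11677 genes, 341 (2.92%) were higher and 176 (1.51%) were lower in 3D, by limma with adjusted p-values below 0.01 and changes of more than 1 log2 unit. Without both samples numbered 2, 397 genes (3.40%) were higher and 276 (2.36%) were lower, and these included 297 of the 341 and 157 of the 176. The 2 directions differed in the size of the changes. The higher genes included 159 with a log2 fold change over 2 and 31 over 4, whereas 8 lower genes passed a log2 fold change of -2. The median log2 fold change was 1.91 among the higher genes, -1.24 among the lower genes and -0.03 over all genes. In 2D, the median level was 3.36 log2 CPM for genes that were higher in 3D and 5.60 log2 CPM for those that were lower. Of the higher genes, 42 had at most 10 reads in every 2D sample and 20 had at most 3, whereas 1 lower gene, *Igf2bp1*, was so low in every 3D sample. For genes with so few reads in 2D the fitted fold change depends on the value added to 0 reads and is no bound.

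**Figure D2:**
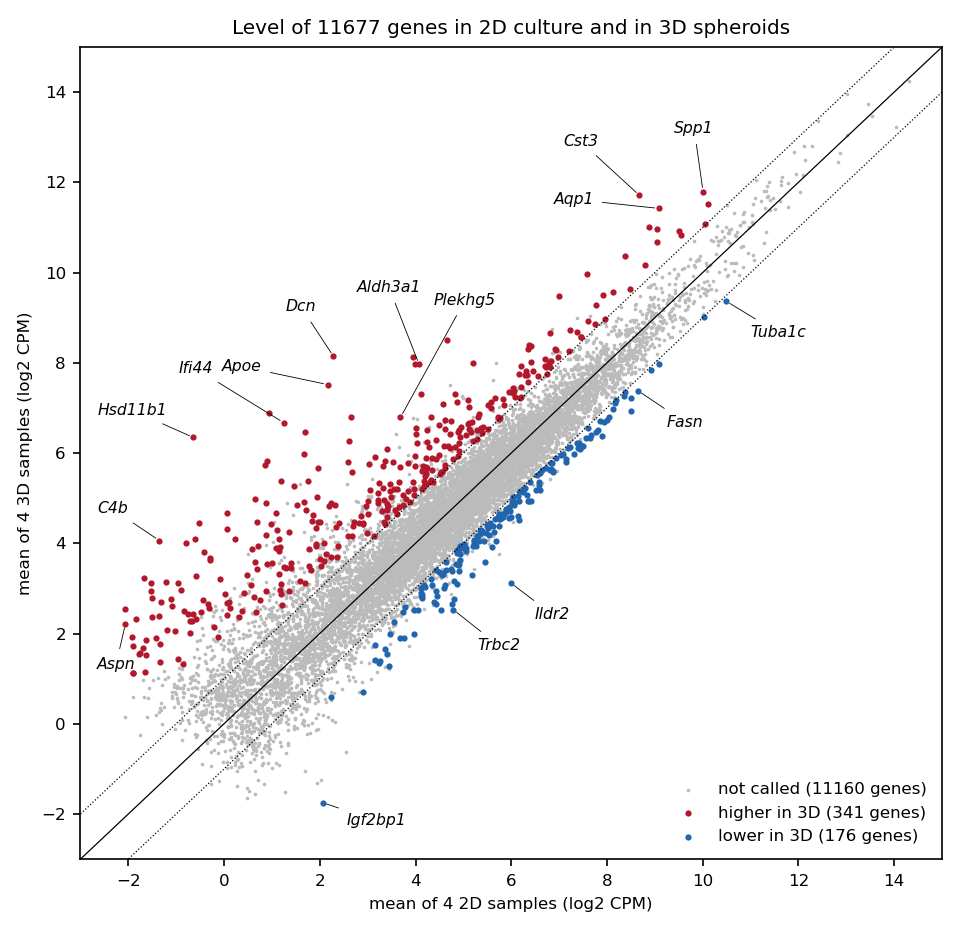
Mean of the 4 3D samples (y axis, log2 CPM) against the mean of the 4 2D samples (x axis, log2 CPM) for 11677 genes. The solid line marks equal levels and the dotted lines a log2 fold change of 1 in either direction. The 341 higher genes reach far above the line at low 2D levels, while the 176 lower genes run close to it.

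Interferon-stimulated genes formed the most populated group among the higher genes. Of 51 measured members of the list, 27 were higher (52.9%, against 2.92% of all genes) and none was lower in 3D, and all 51 log2 fold changes were above 0 and their median was 1.69. The number of higher members was 8 without the 3D replicate 3 and without the 3D replicate 4, and 17 to 36 without any other sample. *Ifi44* had 23, 94, 7 and 6 reads in the 2D samples and 393, 1042, 928 and 1113 in 3D. *Gbp2*, a guanylate-binding GTPase that attacks membranes of intracellular pathogens, had 56, 49, 8 and 17 reads in 2D and 354, 474, 493 and 737 in 3D. The groups did not overlap for either gene, and the 2D replicates 1 and 2 were nearer to 3D than the 2D replicates 3 and 4. The log2 fold change of *Ifi44* was 5.43 ± 0.73 (SE, adjusted p = 0.0015) and that of *Gbp2* was 4.32 ± 0.52 (SE, adjusted p = 0.00089). *Gbp11*, of the same family, had 0 reads in all 2D samples and 62, 12, 76 and 65 in 3D, at least 19.7-fold more than a mean of 3 reads per 2D library. *Mx1*, a GTPase that blocks viral ribonucleoproteins, had 0 to 2 reads in 2D and 46 to 77 in 3D (adjusted p = 0.00032). Another 13 genes known to respond to interferon were picked from the higher genes after the calls had been seen, so that all are higher by choice. Of these, *Ifi27l2a*, a small protein of membranes, had 128, 172, 260 and 59 reads in 2D and 1636, 2662, 1516 and 2402 in 3D, and rose by 3.99 ± 0.42 (SE, adjusted p = 0.00060).

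The transcription factors *Irf9* and *Irf7* rose, and the interferon receptor chains were not called. *Irf9* rose by 1.95 ± 0.38 on the log2 scale (SE, adjusted p = 0.0072), and *Irf7*, a factor that amplifies the response, rose by 3.63 ± 0.53 (SE, adjusted p = 0.0020). *Usp18*, a protease that removes ISG15 and restrains the receptor, rose by 4.34 ± 0.65 (SE, adjusted p = 0.0024). *Ifnar1* had 119, 20, 24 and 38 reads in 2D and 43, 33, 44 and 20 in 3D, and the log2 fold changes were -0.07 ± 0.48 for *Ifnar1*, -0.61 ± 0.32 for *Ifnar2*, 0.52 ± 0.18 for *Ifngr1* and 0.09 ± 0.37 for *Ifngr2* (SE). Without 1 sample at a time, *Irf9* lost its call in 7 of 8 fits, with an adjusted p of up to 0.0295, whereas *Usp18* and *Irf7* lost theirs only without the 3D replicate 3 or 4, with an adjusted p of up to 0.0135 and 0.0114. Per sample, the median deviation of the 51 genes from their own mean was -0.69, -0.10, -1.45 and -1.53 log2 units in 2D and 0.72, 0.91, 1.09 and 1.20 in 3D, so that the 2D samples were spread more widely than the 3D samples.

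Promoter sequences are shown for 3 of these genes, with the matches to a motif known as the interferon-stimulated response element. The 3 were taken from the higher members whose windows hold a match. The windows are those of RefSeq on GRCm38.p6, from 250 bases before to 50 bases after the start of transcription, read 5′ to 3′ on the strand of the gene, and capitals mark matches to TTTCNNTTTC on either strand. They lie at chr19:34640639-34640938 (plus strand, *Ifit1*), chr3:142620413-142620712 (plus strand, *Gbp2*) and chr4:156200769-156201068 (minus strand, *Isg15*).
Ifit1: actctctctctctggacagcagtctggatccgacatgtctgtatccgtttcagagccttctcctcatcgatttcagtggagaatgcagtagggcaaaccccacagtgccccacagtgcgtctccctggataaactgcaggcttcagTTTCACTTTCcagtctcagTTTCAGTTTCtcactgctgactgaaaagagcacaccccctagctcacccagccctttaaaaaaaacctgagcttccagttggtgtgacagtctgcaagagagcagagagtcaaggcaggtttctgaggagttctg
Gbp2: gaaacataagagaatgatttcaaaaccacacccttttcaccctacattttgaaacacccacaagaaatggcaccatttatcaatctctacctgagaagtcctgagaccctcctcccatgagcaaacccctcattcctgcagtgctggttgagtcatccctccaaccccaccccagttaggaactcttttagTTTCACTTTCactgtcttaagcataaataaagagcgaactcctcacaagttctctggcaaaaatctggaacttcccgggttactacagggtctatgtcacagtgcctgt
Isg15: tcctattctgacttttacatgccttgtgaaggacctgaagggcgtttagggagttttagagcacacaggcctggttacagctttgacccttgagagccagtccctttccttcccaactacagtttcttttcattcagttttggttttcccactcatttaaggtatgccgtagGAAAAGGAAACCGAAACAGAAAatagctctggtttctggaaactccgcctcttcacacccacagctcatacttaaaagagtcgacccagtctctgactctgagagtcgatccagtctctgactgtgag
The motif matched in 2 places in *Ifit1*, which encodes a protein that binds foreign RNA and had 55, 118, 8 and 7 reads in 2D and 524, 691, 792 and 807 in 3D. It matched in 1 place in *Gbp2* and in 3 overlapping places in *Isg15*, a ubiquitin-like modifier with 205, 258, 228 and 40 reads in 2D and 768, 1299, 1336 and 1850 in 3D. In all 3 genes every 3D sample was above every 2D sample, and the 2D levels were the more variable ones. Of the 18 interferon-stimulated genes that were higher in 3D and had a window in the table, 11 held a match. Over the 37 measured members of the list with a window the number was 16, and over the 9315 tested genes with a window the share was 3.66%. A match describes the letters of a window, and binding was not measured. *Ifi44*, *Irf7* and *Irf9* held no match in these windows. Of all 32851 windows of this length in the table, 3.44% held one. *Ifit1* and *Isg15* were no longer called without the 3D replicate 3 or 4, *Isg15* also not without the 3D replicate 2, at an adjusted p of up to 0.0146 and 0.0205.

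Of 22 measured genes of MHC class I antigen presentation 5 were higher (22.7%, against 2.92% of all genes), none was lower and 17 were not called, with a median log2 fold change of 1.26. Without 1 sample the number of higher genes was 3 (without the 2D replicate 4 or the 3D replicate 2, 3 or 4) to 9 (without the 2D replicate 2). *B2m*, the light chain shared by all class I molecules, had 7357, 2794, 4091 and 5357 reads in 2D and 14167, 10427, 19246 and 22234 in 3D. *H2-K1*, a classical heavy chain, and *H2-T23*, a nonclassical one, rose by 1.85 ± 0.26 and 2.53 ± 0.28 on the log2 scale (SE, adjusted p = 0.0017 and 0.00070). Every 3D sample was above every 2D sample for these 3 genes. Sequence near the 3′ end of *H2-K1* is shared with *H2-D1* and *H2-Q6*, so that reads could be assigned to the wrong copy. *Psmb8* and *Psmb9*, subunits of the immunoproteasome, were not called, with 0 reads of *Psmb8* in the 2D replicate 3, 20 in the 2D replicate 4 and 273 to 407 in 3D (log2 fold change of 3.72, adjusted p = 0.030). Without the 2D replicate 3 the log2 fold change of *Psmb8* was 2.51 and the adjusted p 0.013.

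Of 24 measured cytokines, chemokines and their receptors 3 were higher (12.5%, against 2.92% of all genes) and none was lower, with 2 to 5 higher without 1 sample and most without the 2D replicate 2, and of 22 measured complement and coagulation genes 1 was higher and 1 was lower (4.55% each), with 2 higher without the 2D replicate 2 or 3. *C4b*, a central component of the complement cascade, had 1, 2, 0 and 3 reads in 2D and 50, 113, 233 and 217 in 3D (adjusted p = 0.00043), and its 3′ end shares sequence with *C4a*. *Ccl8*, a chemokine that attracts monocytes, had 41, 24, 3 and 10 reads in 2D and 313, 425, 449 and 684 in 3D. *Rarres2*, the precursor of the chemoattractant chemerin, had 9, 15, 1 and 0 reads in 2D and 186, 147, 153 and 204 in 3D. None of these 3 genes overlapped between the groups. The log2 fold changes were 4.93 ± 0.57 for *Ccl8* and 4.97 ± 0.62 for *Rarres2* (SE, adjusted p = 0.00074 and 0.0011). The chemokine receptor *Cxcr4* rose by 3.47 ± 0.40 and the NF-kappaB subunit *Relb* by 1.74 ± 0.23 (SE, adjusted p = 0.00077 and 0.0013). *Plaur*, the receptor of urokinase, was the complement and coagulation gene that fell, by 1.11 ± 0.16 (SE, adjusted p = 0.0017).

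**Figure D3:**
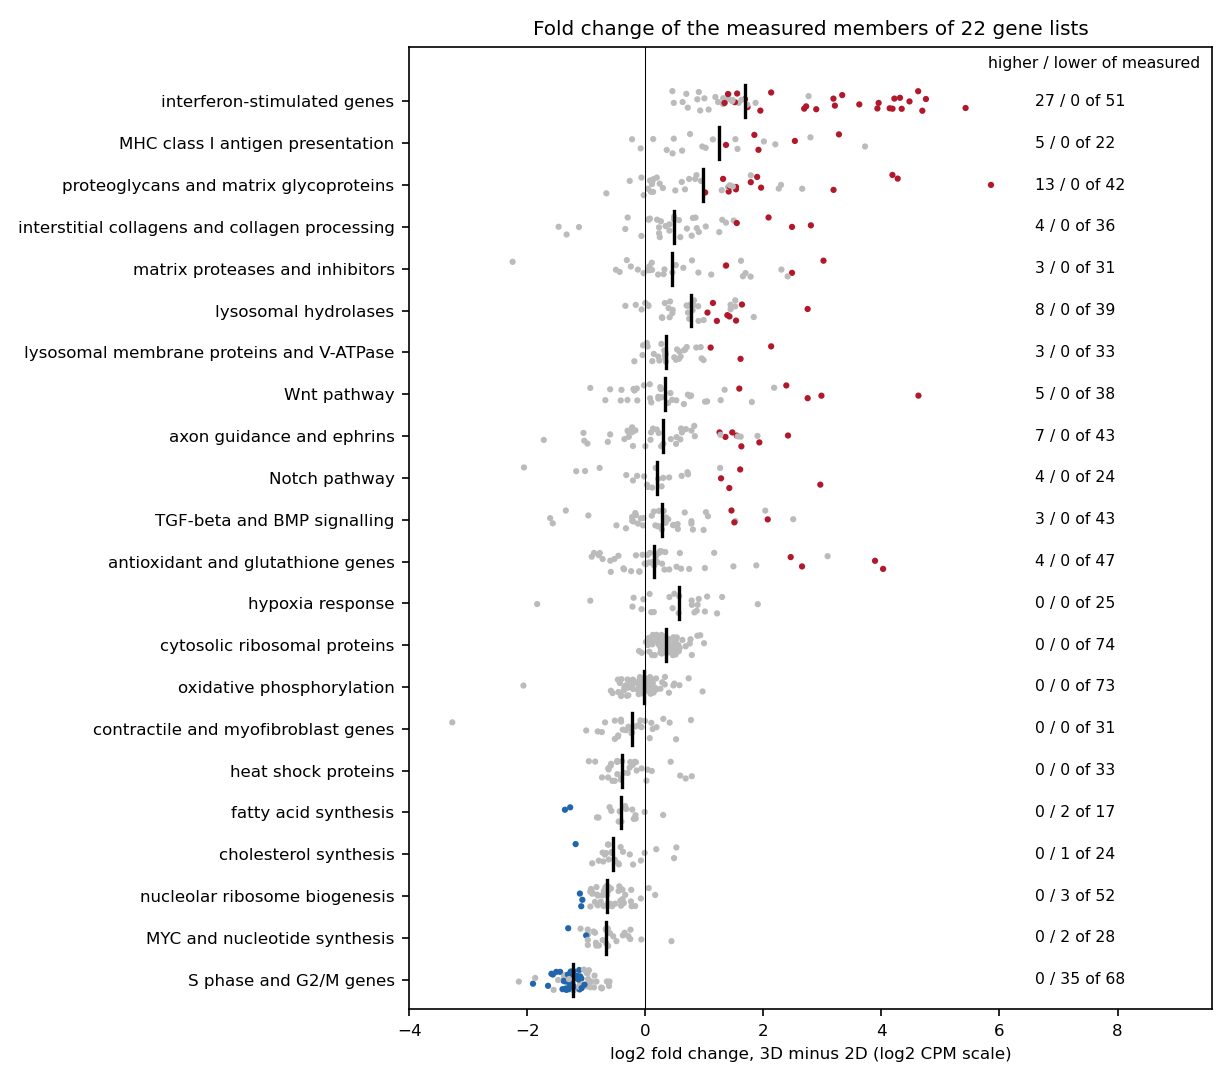
Log2 fold change, 3D minus 2D (x axis, log2 CPM scale), of each measured member of the gene lists (y axis), with higher genes in red, lower genes in blue, genes not called in grey and the median of a list as a black bar. Members of the interferon list reach up to 5.43, while the medians of the ribosomal protein and oxidative phosphorylation lists are 0.35 and -0.03.

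Secreted matrix proteins, rather than fibrillar collagens, made up most of the matrix genes that were higher in 3D. Of 42 measured proteoglycans and matrix glycoproteins 13 were higher (31.0%, against 2.92% of all genes) and none was lower, with a median log2 fold change of 0.98. Without the 3D replicate 3 or 4, 6 and 7 of them were higher. *Aspn*, which encodes asporin, a small leucine-rich proteoglycan that binds collagen, had 0 reads in every 2D sample and 42, 28, 36 and 35 in 3D, at least 12.9-fold above a mean of 3 reads per library. *Postn*, a matricellular protein that links collagen and integrins, had 294, 280, 41 and 89 reads in 2D and 1768, 1645, 2862 and 2970 in 3D. Both genes separated the groups without overlap, and *Postn* rose by 4.19 ± 0.56 on the log2 scale (SE, adjusted p = 0.0015). *Tgfbi*, *Emilin1*, *Prelp* and *Sdc2* rose by 1.90 ± 0.19, 1.43 ± 0.16, 1.54 ± 0.21 and 1.32 ± 0.17 (SE), each with an adjusted p of at most 0.0017. *Bgn*, or biglycan, was abundant in both formats, with 7272 to 11697 reads in 2D and 18469 to 29229 in 3D. *Mgp*, an inhibitor of calcification that was not on the list, had 13 to 26 reads in 2D and 114 to 195 in 3D (adjusted p = 0.00058). *Bgn* was not called without the 3D replicate 3 or 4 (adjusted p of up to 0.0149).

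Of 36 measured interstitial collagens and collagen-processing genes 4 were higher (11.1%, against 2.92% of all genes), none was lower and the median log2 fold change was 0.49. Without 1 sample, 1 (without the 3D replicate 3 or 4) to 6 (without the 2D replicate 2) were higher. Over all samples 6 of the 36 fold changes were below 0, down to -1.47. Called as lower was 1 gene without the 2D replicate 2, and 1 without both samples numbered 2. *Col27a1*, a minor fibrillar collagen, had 32, 24, 31 and 25 reads in 2D and 113, 107, 136 and 102 in 3D, and rose by 2.09 ± 0.23 (SE, adjusted p = 0.00070). *Col3a1* and *Col5a3* rose by 2.49 ± 0.42 and 2.81 ± 0.58 (SE, adjusted p = 0.0038 and 0.0092), and lost their call in 4 and 5 of the 8 fits without 1 sample (adjusted p of up to 0.0183 and 0.0342). In the basement membrane, to which the lens capsule belongs, 2 of 27 measured genes were higher (7.41%), with 0 to 2 higher without 1 sample and none without the 3D replicate 3, and *Lama4*, a laminin chain, had 159, 207, 94 and 222 reads in 2D and 670, 636, 691 and 426 in 3D (adjusted p = 0.0018, and 0.0104 without the 3D replicate 3). Of 31 measured matrix proteases and inhibitors 3 were higher (9.68%), and 2 to 4 without 1 sample. *Mmp11*, a metalloproteinase released in active form, had 201, 144, 214 and 139 reads in 2D and 850, 702, 957 and 1063 in 3D, and rose by 2.49 ± 0.20 (SE, adjusted p = 0.00019). *Htra1*, a secreted serine protease, rose by 1.37 ± 0.18 (SE, adjusted p = 0.0015). *Mmp13*, a collagenase, had 0, 1, 0 and 0 reads in 2D and 4, 23, 19 and 27 in 3D, and was not called without both samples numbered 2. *Timp3* was not called (log2 fold change of 2.31, adjusted p = 0.19), nor without the 2D replicate 3 (0.80, adjusted p = 0.036).

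Of 16 measured serine protease inhibitors, lipocalins and secreted chaperones 4 were higher (25%, against 2.92% of all genes) and 12 were not called, with a median log2 fold change of 0.54. *Cst3*, or cystatin C, an inhibitor of cysteine proteases, had 3031, 2459, 4013 and 5400 reads in 2D and 39303, 15958, 28748 and 27669 in 3D. *Clu*, a secreted chaperone, had 18, 17, 18 and 40 reads in 2D and 243, 411, 274 and 312 in 3D. *Serpina3n*, an inhibitor of serine proteases, had at most 2 reads in a 2D sample and 48, 80, 79 and 91 in 3D. All 3 were without overlap between the groups. *Cst3* rose by 3.03 ± 0.28 and *Clu* by 3.82 ± 0.28 on the log2 scale (SE, adjusted p = 0.00036 and 0.00011). *Apoe*, a carrier of lipids, had 21, 37, 29 and 80 reads in 2D and 2141, 530, 2048 and 1905 in 3D, lowest in the 3D replicate 2, and rose by 5.36 ± 0.49 (SE, adjusted p = 0.00036). It was the 1 gene called among 15 measured LXR targets and efflux genes (6.67%), and 2 were called without the 2D replicate 2 and without both samples numbered 2. *Slc40a1*, or ferroportin, the exporter of iron, had 5, 2, 0 and 9 reads in 2D and 138, 49, 163 and 222 in 3D (adjusted p = 0.00088), and with the iron oxidase *Cp* it made 2 higher genes among 21 of iron and copper handling (9.52%). None of the 21 was lower over all samples, whereas 2 were lower without the 2D replicate 2 and without both samples numbered 2. At an unadjusted p under 0.05 in limma, 4 of the 21 were higher and 6 lower. *Cp* had 520, 298, 52 and 276 reads in 2D, and its log2 fold change was 3.84 with and 3.17 without the 2D replicate 3. Without the 3D replicate 3 or 4 *Cp* was not called (adjusted p of up to 0.0101).

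Among enzymes that act on hormones and small molecules, single genes rose while most listed genes were not called. In the list of retinoic acid and xenobiotic metabolism 2 of 19 measured genes were higher (10.5%, against 2.92% of all genes) and 17 were not called, and 1 was higher without the 2D replicate 4 or the 3D replicate 3 or 4. All 19 log2 fold changes were above 0, with a median of 0.68. At an unadjusted p under 0.05 in limma, 11 of the 19 were higher and 0 lower. *Hsd11b1*, which regenerates active glucocorticoid and had the largest fold change of all, was accompanied by 2 further genes among 18 measured of glucocorticoid activation and response (16.7%, and 1 to 4 genes without 1 sample, fewest without the 3D replicate 4), *Cebpd* and *Klf9*, both transcription factors that glucocorticoids induce. *Klf9* had 410, 222, 253 and 216 reads in 2D and 549, 776, 1107 and 669 in 3D, and rose by 1.62 ± 0.25 (SE, adjusted p = 0.0024, and 0.0101 without the 3D replicate 4). *Cebpd* rose by 2.79 ± 0.40 (SE, adjusted p = 0.0019) and was not called without the 3D replicate 3 or 4 (up to 0.0103). *Dio2*, a deiodinase that activates thyroid hormone, had 2, 0, 0 and 0 reads in 2D and 17, 22, 43 and 123 in 3D, and the thyroid hormone receptor *Thra* rose by 1.59 ± 0.29 (SE, adjusted p = 0.0060). *Thra* lost its call in 5 and *Dio2* in 1 of the 8 fits without 1 sample (adjusted p of up to 0.0262 and 0.012). *Aldh3a1*, an aldehyde dehydrogenase best known from the cornea, had 126, 107, 133 and 243 reads in 2D and 1764, 832, 3357 and 3122 in 3D, without overlap. It rose by 3.89 ± 0.40 (SE, adjusted p = 0.00060), and *Mgst1*, a glutathione transferase of membranes, by 2.46 ± 0.22 (SE, adjusted p = 0.00032). These were 2 of 4 higher genes among 47 measured antioxidant and glutathione genes (8.51%, against 2.92% of all genes), whose median log2 fold change was 0.15, and without the 3D replicate 1, 3 or 4 there were 2. *Ass1*, which makes argininosuccinate for arginine synthesis, had 649, 711, 750 and 840 reads in 2D and 2047, 2625, 3012 and 2870 in 3D, and rose by 1.96 ± 0.16 (SE, adjusted p = 0.00019).

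**Figure D4:**
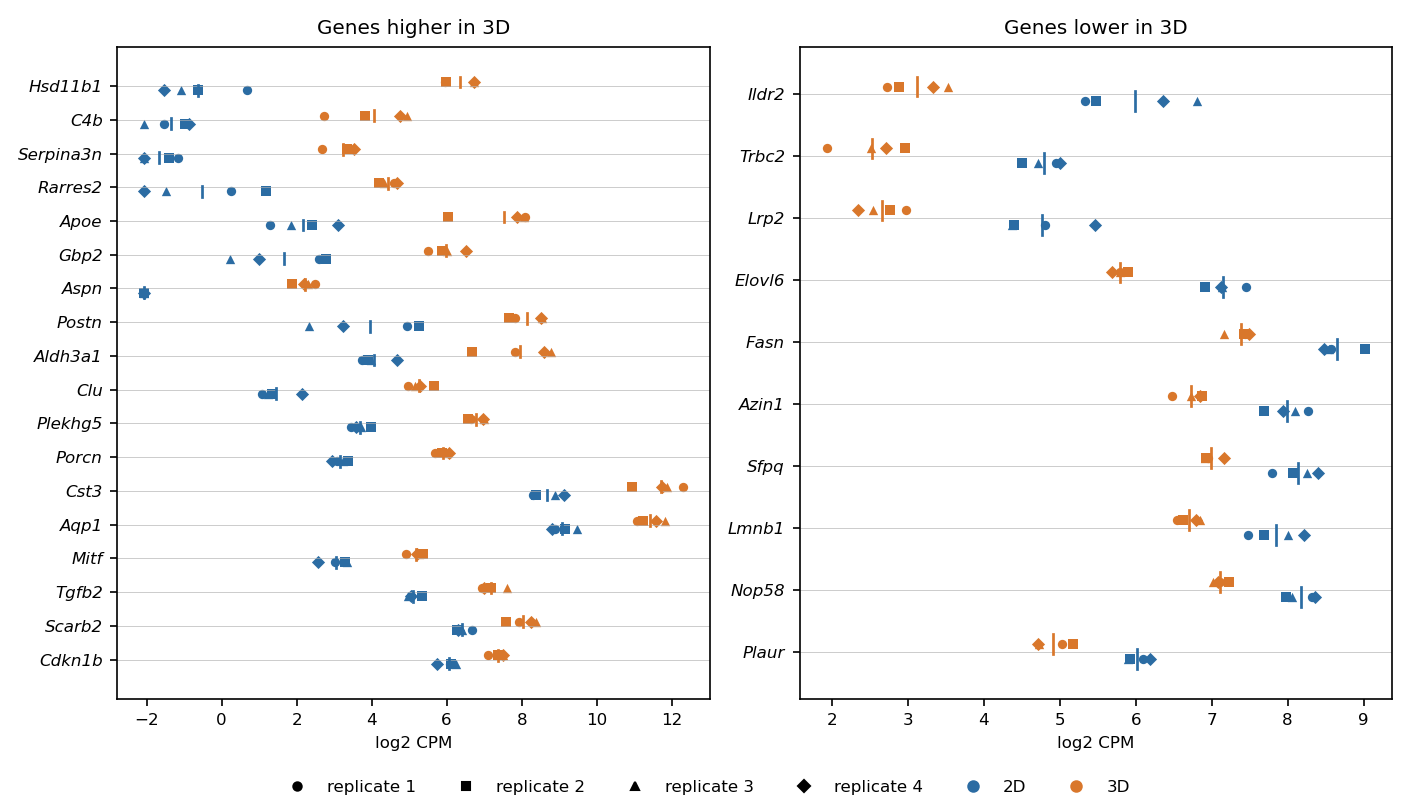
Level in log2 CPM (x axis) of named genes (y axis) in each of the 4 2D samples (blue) and 4 3D samples (orange), with a marker shape for each replicate number and a vertical bar for the mean of a group. *Plekhg5* and *Porcn* show little spread within a group, while *Rarres2* and *Postn* are spread widely in 2D.

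Some lysosomal enzymes rose moderately, and most of the others leaned the same way without a call. Of 39 measured lysosomal hydrolases 8 were higher (20.51%, against 2.92% of all genes) and none was lower, the median log2 fold change was 0.78, and 36 of 39 had a fold change above 0. Without the 3D replicate 3 or 4, 3 of them were higher. The list of lysosomal membrane proteins and subunits of the proton pump, which also holds the transcription factor *Mitf*, had 3 higher genes of 33 measured, *Mitf*, *Scarb2* and *Lamp2*, and a median of 0.35. This was 9.09%, and the number was 6 without the 2D replicate 2 and without both samples numbered 2, and 2 without the 3D replicate 1, 3 or 4. No subunit of the pump was called. *Lamp2*, a main protein of the lysosomal membrane, was not called without the 3D replicate 1, 3 or 4 (adjusted p of up to 0.0143). *Hexa*, a lysosomal enzyme of ganglioside breakdown, had 800, 805, 828 and 858 reads in 2D and 1542, 1552, 1839 and 1728 in 3D, without overlap. It rose by 1.15 ± 0.13 (SE, adjusted p = 0.00073). *Scarb2*, the receptor that sorts glucocerebrosidase to lysosomes, rose by 1.61 ± 0.18 (SE, adjusted p = 0.00073). *Mitf*, a factor of the family that controls lysosomal genes, had 75, 70, 85 and 55 reads in 2D and 235, 333, 294 and 298 in 3D, without overlap, and rose by 2.13 ± 0.22 (SE, adjusted p = 0.00051). The cathepsin *Ctsl* was the most abundant of the hydrolases that rose, with 3202 to 7355 reads in 2D and 9387 to 17211 in 3D, and was not called without the 3D replicate 3 or 4 (adjusted p of up to 0.012). Among 38 measured genes of the autophagy machinery 2 were higher (5.26%, against 2.92% of all genes), *Calcoco1* and *Map1lc3a*, and neither kept its call in more than 2 of the 8 fits without 1 sample.

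The signalling genes that rose included ligands and proteins that process or carry them. In the Wnt pathway 5 of 38 measured genes were higher (13.2%, against 2.92% of all genes) and none was lower, and 3 were higher without the 3D replicate 1, 3 or 4. *Porcn*, which acylates Wnt proteins, had 78, 74, 78 and 72 reads in 2D and 399, 473, 495 and 538 in 3D, and *Wls*, which carries them to the surface, had 1702 to 2569 in 2D and 4889 to 6543 in 3D. *Porcn* rose by 2.75 ± 0.17 and *Wls* by 1.59 ± 0.15 (SE, adjusted p = 4.1e-05 and 0.00036). The samples of a group differed little for both genes. *Rspo3*, a secreted amplifier of Wnt signals, had 8, 0, 0 and 0 reads in 2D and 82, 29, 126 and 64 in 3D (adjusted p = 0.0015), and the ligand *Wnt6* had at most 7 reads in 2D and 28 to 48 in 3D (adjusted p = 0.0035, up to 0.0187 without 1 of the 3D samples). Of 43 measured genes of TGF-beta and BMP signalling 3 were higher (6.98%, against 2.92% of all genes), and 2 to 4 without 1 sample. *Tgfb2*, the isoform prominent in the eye, had 316, 294, 267 and 314 reads in 2D and 959, 1169, 1502 and 1023 in 3D, and rose by 2.07 ± 0.17 (SE, adjusted p = 0.00019), while *Tgfb3* rose by 1.46 ± 0.19 (SE, adjusted p = 0.0013).

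Of 16 measured genes of the IGF axis 2 were higher (12.5%, against 2.92% of all genes), 1 was lower (6.25%, against 1.51%) and 13 were not called. The median log2 fold change was 0.15, and without 1 sample 0 to 2 genes were higher and 0 to 1 lower. *Igfbp4*, which holds IGF, and *Pappa*, the protease that cleaves IGFBP4, rose by 3.08 ± 0.43 and 2.34 ± 0.44 on the log2 scale (SE, adjusted p = 0.0018 and 0.0063), whereas *Igf2bp1*, which encodes an mRNA-binding protein named for IGF2, fell. *Pappa* was called in 2 of the 8 fits without 1 sample and *Igfbp4* in 6, with an adjusted p of up to 0.0264 and 0.0102, and *Igf2bp1* in 5, with up to 0.0125. Among axon guidance genes 7 of 43 were higher (16.3%, against 2.92% of all genes), including *Slit2* with 360, 259, 221 and 365 reads in 2D and 936, 890, 673 and 691 in 3D, its receptor *Robo2* and the ephrin *Efna1*. Without 1 sample the number was 2 (without the 3D replicate 1, 3 or 4) to 8 (without the 2D replicate 2). *Slit2* and *Efna1* rose by 1.55 ± 0.17 and 1.63 ± 0.21 (SE, adjusted p = 0.00072 and 0.0013), and *Robo2* by 1.26 ± 0.21 (SE, adjusted p = 0.0038, up to 0.0182 without 1 sample and not called without both samples numbered 2). In the Notch pathway 4 of 24 were higher (16.7%), but none without the 3D replicate 1, 3 or 4, 1 without the 3D replicate 2 and 2 without the 2D replicate 3. Among the 4 was the receptor *Notch3*, with 1 to 9 reads in 2D and 32 to 49 in 3D (adjusted p = 0.0035), which was not called without any one of the 3D samples (adjusted p of up to 0.0168). *Hes1*, a Notch target, was not called, with 333 to 948 reads in 2D and 855 to 1184 in 3D. Without both samples numbered 2, 1 gene of the Notch list was lower.

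Single genes outside these pathways were among the most sharply separated. *Plekhg5*, which encodes an exchange factor for RhoA, had 103, 114, 110 and 113 reads in 2D and 778, 762, 975 and 1012 in 3D. With a log2 fold change of 3.10 ± 0.17 (SE) it had the smallest adjusted p of all genes, 2.8e-05. *Camk1g*, a calcium- and calmodulin-dependent kinase, had 30, 19, 7 and 8 reads in 2D and 168, 397, 639 and 722 in 3D, and *Pde1b*, a phosphodiesterase that calmodulin activates, had 2, 7, 5 and 24 in 2D and 147, 89, 272 and 161 in 3D. No 2D sample reached a 3D sample for these 3 genes. *Camk1g* and *Pde1b* rose by 4.87 ± 0.52 and 4.24 ± 0.54 (SE, adjusted p = 0.00069 and 0.0012). The water channel *Aqp1*, a major channel of the lens epithelium, had 4511, 4203, 6054 and 4321 reads in 2D and 16887, 19436, 27840 and 24510 in 3D, and rose by 2.34 ± 0.20 (SE, adjusted p = 0.00026). The peptidases *Ace* and *Mme*, both surface enzymes that cleave small peptides, had 0 to 5 and 15 to 20 reads in 2D and reached 25 to 64 and 77 to 170 in 3D (adjusted p = 0.0013 and 0.00069).

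Adhesion receptors and ion transport showed scattered calls. Of 26 measured integrins 3 were higher (11.5%, against 2.92% of all genes), none was lower and the median log2 fold change was -0.01. *Itgb5*, the most abundant of these 3, had 803, 968, 882 and 1423 reads in 2D and 1764, 2109, 2295 and 2257 in 3D, while *Itga11*, a collagen receptor subunit, had 2 to 13 in 2D and 30 to 65 in 3D. *Itgb3*, which pairs with the alpha V subunit, had 5 to 16 reads in 2D and 32 to 56 in 3D. The 3 integrins lost their call in 2, 4 and 6 of the 8 fits without 1 sample (adjusted p of up to 0.0123, 0.0233 and 0.0282). Of 34 measured genes of adhesion and junctions 1 was higher (2.94%, against 2.92% of all genes), *Jam2*, an adhesion molecule of tight junctions with 3 to 22 reads in 2D and 30 to 128 in 3D, which was called in 2 of these fits (up to 0.0301). Among 31 measured water channels, ion pumps and ion channels 4 were higher (12.9%, and 2 without the 3D replicate 3 or 4), *Aqp1* and *Fxyd1* in each of the 8 fits. *Fxyd1*, a regulator of the sodium pump, had 5, 0, 1 and 0 reads in 2D and 52, 27, 49 and 34 in 3D (adjusted p = 0.0012). *Nt5e*, a surface enzyme that releases adenosine, had 1, 0, 0 and 0 reads in 2D and 35, 27, 33 and 20 in 3D (adjusted p = 0.00072), and *Sult5a1*, a sulfotransferase, had at most 3 reads in 2D and 20 to 55 in 3D (adjusted p = 0.0011).

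Genes known to restrain growth or to promote breakdown were found among the higher genes, as described here after the calls had been seen. *Cdkn1b*, the cyclin-dependent kinase inhibitor p27, had 649, 510, 650 and 516 reads in 2D and 1078, 1343, 1405 and 1469 in 3D, without overlap, and rose by 1.32 ± 0.15 (SE, adjusted p = 0.00073). *Fbxo32*, a ubiquitin ligase of muscle atrophy, had 15, 16, 18 and 13 reads in 2D and 93, 70, 109 and 98 in 3D, and rose by 2.55 ± 0.28 (SE, adjusted p = 0.00070). The growth arrest gene *Gas1*, the MYC antagonist *Mxd4*, the repressor *Hbp1*, the translation inhibitor *Pdcd4*, the PI3-kinase inhibitor *Pik3ip1* and the stress protein *Sesn3* rose by 1.40 to 1.91 log2 units (adjusted p = 0.0032 to 0.0082). These 6 genes lost their call in 2 to 6 of the 8 fits without 1 sample (adjusted p of up to 0.0155 to 0.0345). *Pink1*, a kinase of mitochondrial quality control, rose by 2.11 ± 0.31 (SE, adjusted p = 0.0021, up to 0.0117 without the 3D replicate 3 or 4). The list of D cyclins, CDK inhibitors and quiescence genes as a whole had 2 higher genes of 29 measured (6.90%, against 2.92% of all genes). Its median log2 fold change was 0.16, and 1 gene was higher without the 3D replicate 3 or 4. Without the 2D replicate 2, and without both samples numbered 2, 1 of the 29 was lower. *Bax* was the 1 gene called, as lower, among 32 p53 targets (3.12%, against 1.51% of all genes). Without both samples numbered 2, 3 p53 targets were lower and 1 was higher. *Bax* lost its call in 6 of the 8 fits without 1 sample (adjusted p of up to 0.0143).

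Of the 176 lower genes 35 were among the 68 measured S phase and G2/M genes (51.5% of the list, against 1.51% of all genes). The number was 58 without both samples numbered 2, and 17 (without the 3D replicate 3) to 54 (without the 2D replicate 2) without 1 sample. A further reading of the calls, made after they had been seen, brought the number with a role in division or DNA replication to 102, which left 74 genes. No gene of the S phase and G2/M list was higher, whereas the further genes were picked from the lower calls and so could not be. Of 17 measured genes of fatty acid synthesis 2 were lower (11.8%, against 1.51% of all genes) and none was higher, with a list median of -0.40. *Fasn*, the fatty acid synthase, had 3612, 3799, 3190 and 3415 reads in 2D and 1355, 1391, 1100 and 1455 in 3D. *Elovl6*, which elongates its product, had 1662, 880, 1198 and 1340 in 2D and 433, 479, 427 and 415 in 3D. Neither gene overlapped between the groups. *Fasn* fell by 1.27 ± 0.15 and *Elovl6* by 1.36 ± 0.14 on the log2 scale (SE, adjusted p = 0.00074 and 0.00051). Among 24 measured genes of cholesterol synthesis and its control 1 was lower (4.17%, against 1.51% of all genes). It was *Stard4*, a carrier of sterols, which fell by 1.18 ± 0.19 (SE, adjusted p = 0.0029, up to 0.0127 without 1 sample), and the list median was -0.54.

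Of 52 measured nucleolar genes of ribosome biogenesis 3 were lower (5.77%, against 1.51% of all genes) and none was higher, with a median of -0.64 and 50 of 52 fold changes below 0. Without 1 sample the number was 1 (without the 2D replicate 4 or the 3D replicate 1, 3 or 4) to 6 (without the 2D replicate 2), with 5 without the 2D replicate 1 or the 3D replicate 2, and it was 6 without both samples numbered 2. *Nop58*, a core protein of box C/D particles, had 3036, 1840, 2267 and 3168 reads in 2D and 1083, 1216, 995 and 1094 in 3D, and fell by 1.07 ± 0.13 (SE, adjusted p = 0.00084). *Dkc1* and *Nhp2*, 2 proteins of box H/ACA particles, fell by 1.08 ± 0.17 and 1.11 ± 0.23 (SE, adjusted p = 0.0029 and 0.0089, and up to 0.0148 and 0.034 without 1 sample). The following 4 genes of RNA processing and nuclear transport were picked after the calls had been seen and stand for no list. *Sfpq*, a splicing factor of paraspeckles, had 2114, 1975, 2602 and 3237 reads in 2D and 967, 985, 926 and 1149 in 3D, without overlap, and fell by 1.14 ± 0.15 (SE, adjusted p = 0.0012). *Ranbp1*, *Cse1l* and *Nup155*, which act in the Ran cycle and the nuclear pore, fell by 1.02 ± 0.15, 1.03 ± 0.16 and 1.21 ± 0.20 (SE, adjusted p = 0.0021, 0.0029 and 0.0033), and were called in 5, 5 and 3 of the 8 fits without 1 sample. Among 28 measured genes of MYC and nucleotide synthesis 2 were lower (7.14%, against 1.51% of all genes), *Tk1* and *Shmt1*, and the median was -0.67. The number was 6 without both samples numbered 2 and 1 to 5 without 1 sample, with 5 without the 3D replicate 2, 3 without the 2D replicate 2 and 1 without the 2D replicate 3 or 4 or the 3D replicate 1, 3 or 4. *Shmt1* was called in 2 of the 8 fits without 1 sample (adjusted p of up to 0.0194). *Azin1*, which protects ornithine decarboxylase and so promotes polyamine synthesis, had 2947, 1511, 2335 and 2347 reads in 2D and 699, 948, 812 and 924 in 3D, and fell by 1.27 ± 0.15 (SE, adjusted p = 0.00086).

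**Figure D5:**
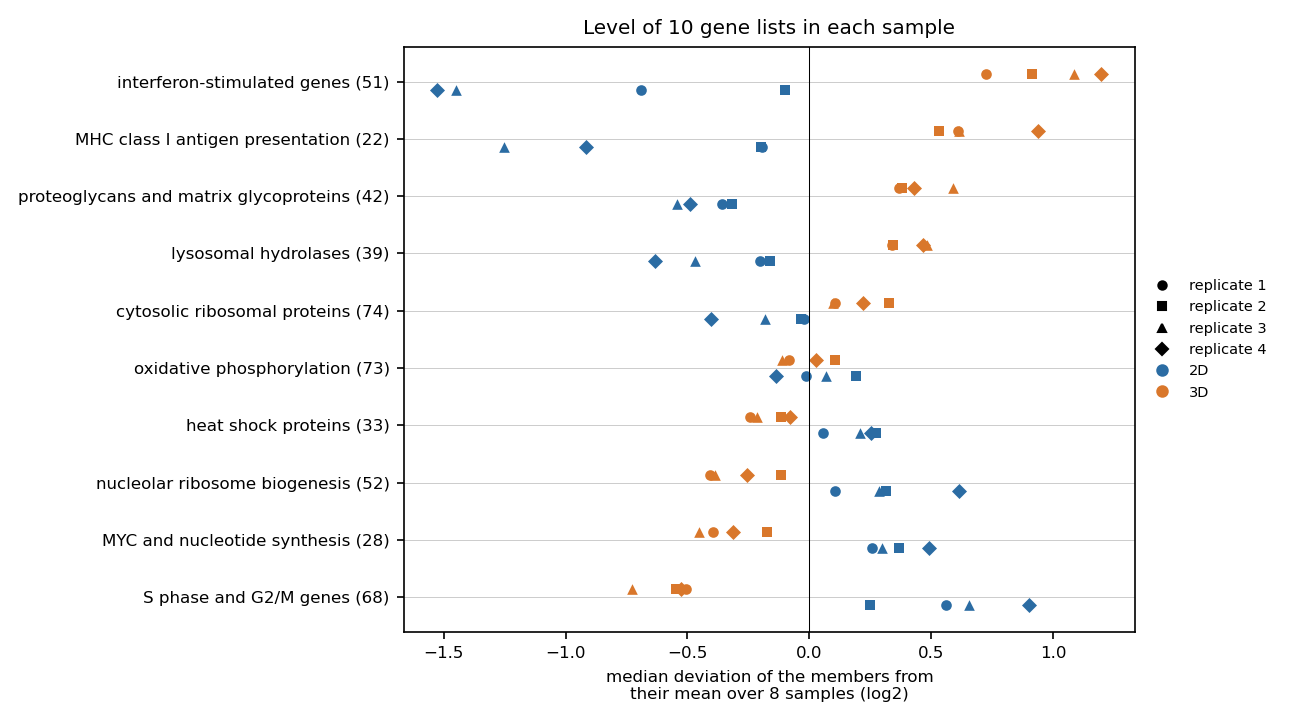
Median deviation of the members of a list from their own mean over the 8 samples (x axis, log2 units) for each sample, with the number of measured members in brackets (y axis), 2D in blue and 3D in orange. The 3D samples lie right of the 2D samples for the interferon list and left of them for the nucleolar list, while the oxidative phosphorylation list overlaps.

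Structural and membrane genes that fell included *Lmnb1*, or lamin B1, with 1704, 1509, 2181 and 2859 reads in 2D and 730, 795, 886 and 897 in 3D, the 1 gene called among 22 of the nuclear envelope (4.55%, against 1.51% of all genes). *Lmnb1* fell by 1.14 ± 0.17 (SE, adjusted p = 0.0020). The tubulins *Tuba1c* and *Tubb4b* fell by 1.13 ± 0.20 and 1.08 ± 0.17 (SE, adjusted p = 0.0044 and 0.0027) and were 2 of 22 measured tubulin and microtubule genes (9.09%, against 1.51% of all genes). Both share 3′ sequence with related genes and pseudogenes, and they lost their call in 5 and 3 of the 8 fits without 1 sample (adjusted p of up to 0.0209 and 0.0111). *Lrp2*, or megalin, an endocytic receptor, had 265, 153, 175 and 422 reads in 2D and 60, 53, 43 and 39 in 3D. It fell by 2.10 ± 0.27 (SE, adjusted p = 0.0013). *Ildr2* and *Trbc2*, which led the reduced genes with *Igf2bp1*, had 326 to 951 and 164 to 305 reads in 2D and 50 to 87 and 28 to 61 in 3D. The cytokine receptor subunit *Il18rap* had 156, 129, 354 and 222 reads in 2D and 51, 67, 33 and 32 in 3D, and *Fgf7*, a growth factor for epithelia, had 303, 105, 172 and 224 in 2D and 69, 58, 64 and 34 in 3D. In none of these genes did a 3D sample reach a 2D sample. *Il18rap* was called in 4 and *Fgf7* in 1 of the 8 fits without 1 sample, with an adjusted p of up to 0.017 and 0.0199.

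Several functions gave no call. Among 73 measured nuclear genes of oxidative phosphorylation none was called, the median log2 fold change was -0.03 and 34 fold changes were above 0, with *Ndufa6* at 0.97 ± 0.16 (SE, adjusted p = 0.0034). At an unadjusted p under 0.05, 5 of them were higher and 11 lower, and without both samples numbered 2 *Ndufa6* alone was called. Cytosolic ribosomal proteins likewise had none called of 74, yet 72 fold changes were above 0 and the median was 0.35, with 34 higher and 0 lower at an unadjusted p under 0.05. The median was 0.19 under quantile normalization and 0.37 with equal medians, and without 1 sample 0 to 3 ribosomal protein genes were called, 3 of them without the 2D replicate 1. *Rps27* stood just short of the limit on the fold change, with 9420 to 15430 reads in 2D and 19793 to 25245 in 3D (log2 fold change of 0.996, adjusted p = 0.0016). None of 33 heat shock proteins was called in limma, with a median of -0.39 and 16 lower and 1 higher at an unadjusted p under 0.05. The same held for 31 contractile genes (median -0.23), 25 hypoxia genes (0.57), 16 clock genes (0.19), 11 regulators of epithelial-mesenchymal transition (0.04) and 7 crystallins (-0.23). At an unadjusted p under 0.05 the numbers of higher and lower genes were 1 and 6 for the contractile, 8 and 2 for the hypoxia, 4 and 1 for the clock, 3 and 1 for the transition and 3 and 2 for the crystallin genes. Without both samples numbered 2, 2 clock genes were higher and 1 crystallin was lower. The summed level of the crystallins was 375 to 684 CPM in 2D and 716 to 808 CPM in 3D, without overlap, although the median of their log2 fold changes was below 0. *Acta2*, or smooth muscle actin, had 7095, 10081, 14847 and 37402 reads in 2D and 8040 to 11143 in 3D, so that the groups overlapped.

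The reads of mitochondrially encoded genes took a larger part of the 3D libraries. The 7 measured genes summed to 21980 to 36477 CPM in 2D and 40440 to 61450 CPM in 3D, without overlap, and all 7 log2 fold changes were above 0, with a median of 0.82 (0.71 under quantile normalization). This share is also a measure of RNA quality, and its part in the other differences was not tested. Of the 7 genes 1 was higher, *COX1*, with 5490 to 7975 reads in 2D and 13387 to 18770 in 3D (log2 fold change of 1.40 ± 0.17, SE, adjusted p = 0.00086), whose 3′ sequence has nuclear copies.

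Of 35 measured lens and eye transcription regulators 1 was higher (2.86%, against 2.92% of all genes) and none was lower. The higher gene was *Sox4*, which encodes a SOX family factor, with 808 to 1498 reads in 2D and 1589 to 2712 in 3D (log2 fold change of 1.15 ± 0.18, SE, adjusted p = 0.0029, and up to 0.0136 without 1 sample). *Pax6*, the main regulator of eye development, had 566, 351, 349 and 511 reads in 2D and 689, 816, 598 and 493 in 3D, and the groups just missed overlap in CPM (log2 fold change of 0.69 ± 0.18, SE, adjusted p = 0.025). *Maf*, a regulator of crystallin genes, had a log2 fold change of 1.11 ± 0.27 (SE, adjusted p = 0.019) and was called without both samples numbered 2 (adjusted p = 0.0075). *Prox1* was not called over all samples, with a log2 fold change of 2.84 and an adjusted p of 0.15. Without the 2D replicate 3, in which 1 read was counted, the log2 fold change was 1.15 and the adjusted p 0.0038.

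The calls differed in how far they depended on single samples. Called whichever 1 of the 8 samples was left out were 106 of the 341 higher genes and 45 of the 176 lower genes. The number of higher genes ranged from 112 without the 3D replicate 3 to 483 without the 2D replicate 2, and the number of lower genes from 49 to 287 in the same fits. Of the interferon list 8 to 36 genes were called in these fits, of the lysosomal hydrolases 3 to 9, of the proteoglycans and matrix glycoproteins 6 to 15 and of the S phase and G2/M genes 17 to 54. Without both samples numbered 2, 33 interferon-stimulated genes, 10 lysosomal hydrolases, 14 proteoglycans and glycoproteins and 6 nucleolar genes were called. The spread within a group was larger in 2D, since 68.1% of all genes had a larger SD in the 2D samples than in the 3D samples.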

How the data were processed

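RNA was sequenced from bulk cultures, and the authors deposited 1 table with a log2 CPM value per gene and sample (reads scaled to a library size, on a log2 scale). The scale did not follow the read total of the sample alone. In the 3D replicate 4, 1 read stood for 0.1239 CPM at 8364276 reads, and in the 3D replicate 2 for 0.1235 CPM at 8351660 reads. Per the submitters' processing notes, STAR 2.7.8a, featureCounts 1.6.0 and the genome build GRCm38.p6 were used. The authors counted uniquely mapped reads in sense orientation and removed genes at low CPM (0.2), so that a gene seen in too few samples is not analysed here. Reads shared by near-identical genes are thereby lost or split: of 214 named genes searched, 38 share a stretch of 50 bases in the last 300 bases of their transcripts with another gene. Reads were recovered from the log2 values, 100% of which lay within 0.1 read of a whole number, and read counts are printed unscaled for depth. Depth per sample was 7305053 to 9362587 reads, and PCR copies were not removed by molecular identifiers. The log fold change, F, P value, FDR and mean log CPM columns hold the authors' own comparison and were not used, nor was the table of regions.

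The groups came from the labels. Since the deposited unit is log2 CPM, limma 3.58.1 in R 4.3.3 (linear model, empirical Bayes with a variance trend, two-sided, Benjamini-Hochberg adjustment over 11677 genes) took the place of the count test of the study's methods, and was tested on simulated data. Fold changes are on the log2 CPM scale with the offset of the deposited values. Calls required an adjusted p below 0.01 and a change of more than 1 log2 unit. Gene lists were described by counts and medians, with no test. Promoter windows came from RefSeq, GRCm38.p6.

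Named genes were, per direction, the 25 with the largest change without overlap and with the higher group at 2 log2 CPM or more (S phase and G2/M genes left out), the 10 most abundant, the 10 with the smallest adjusted p, and up to 4 per list. The members and lists were chosen with earlier results of these data known, and the groups of further interferon-inducible, secreted, growth-restraining, RNA processing and division genes were written after the calls had been seen. The following genes were named after their values were seen: *Ace*, *Acta2*, *Azin1*, *C4a*, *Cdk1*, *Cse1l*, *Ctnnd1*, *Dio2*, *Emilin1*, *Fbxo32*, *Fh1*, *H2-D1*, *H2-Q6*, *Hbp1*, *Hes1*, *Hexa*, *Ifi27l2a*, *Ifnar1*, *Ifnar2*, *Ifngr1*, *Ifngr2*, *Irf7*, *Irf9*, *Isg15*, *Lxn*, *Maf*, *Mgp*, *Mme*, *Mxd4*, *Ndufa6*, *Nup155*, *Pax6*, *Pdcd4*, *Pik3ip1*, *Pink1*, *Prelp*, *Prox1*, *Psmb8*, *Psmb9*, *Robo2*, *Rps27*, *Sdc2*, *Sesn3*, *Sfpq*, *Tgfbi*, *Thra*, *Timp3*, *Tpra1*, *Wls* and *Zfp536*. The alternatives were other variance models, a replicate block, sample weights, other scalings, a pseudocount of 1 CPM, a level filter, other thresholds, leaving out each sample, and leaving out both samples numbered 2.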

Additional observations from a re-analysis of the deposited data

Results flagged for a closer look

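In each group of 4 samples, a gene of the text was picked out where its highest or lowest sample was far from the other samples for the range of the group (a gap past the 95% limit of Dixon's test). Chance picks out about 1 in 20 such groups. In all, 29 samples were picked out in 280 groups, in 27 genes, but some of these genes, such as *Prox1*, *Timp3*, *Lxn*, *Zfp536*, *Cdk1*, *Ctnnd1*, *Fh1* and *Tpra1*, were named because a sample stood apart, so that the number cannot be held against chance. The outlying values were spread over all 8 samples, with 8 in the 3D replicate 2 and 1 to 4 in each of the others. All values are levels in log2 CPM.

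In the 2D replicate 3, *Prox1* was low at -1.49 (the nearest sample was at 5.12), *Timp3* at 1.16 (7.03), *Lxn*, a carboxypeptidase inhibitor, at 0.37 (5.63) and *Zfp536*, a zinc finger gene, at 0 reads, which is a level of -2.06 (4.37). Without this sample the log2 fold change of *Lxn* went from 2.78 (adjusted p = 0.105, not called) to 1.33 (limma adjusted p = 0.0065, called) and that of *Zfp536* from 2.05 to 0.36, not called either way. In the samples numbered 2, *Cdk1* was low at 4.01 in 2D (8.38) and at 4.36 in 3D (6.74), *Ctnnd1* at 0.98 in 3D (4.17), *Fh1*, the fumarase, at 1.15 in 3D (4.31) and *Tpra1* at 1.44 in 3D (4.69). These genes belong to the sets of 102 and 215 genes that were low in these samples, and what the samples share was not tested.

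Among the immune genes, *Ifi44* was lowest in the 3D replicate 1 at 5.65 (6.92), *Gbp11* in the 3D replicate 2 at 0.78 (3.03), *H2-Q6* in the 3D replicate 3 at 0.74 (1.56) and *Ifnar2* in the 3D replicate 4 at 0.89 (1.62). *Apoe* was lowest in the 3D replicate 2 at 6.04 (7.88), as was *Cebpa* at 1.84 (2.92), *Ace* and *Sult5a1* in the 3D replicate 1 at 1.78 (2.91) and 1.48 (2.64), and *Tgfbi* in the same sample at 6.61 (7.14). *Prox1* was lowest among the 3D samples in replicate 4 at 6.13 (6.52), as was *Bax* at 5.29 (5.75), whereas *Sfpq* was highest there at 7.16 (6.95).

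*Dkc1* was highest in the 3D replicate 2 at 7.60 (7.18) and *Fasn* in the 2D replicate 2 at 9.02 (8.56). In the 2D replicate 4, *Hes1* was highest at 6.63 (5.51) and *Ndufa6* lowest at 7.30 (7.75). For 4 genes the outlying 2D sample was one of a few reads against others at 0: *Rspo3* at 0.11 and 8 reads, *Dio2* at -1.15 and 2 reads and *Nt5e* at -1.54 and 1 read in the 2D replicate 1, and *Mmp13* at -1.41 and 1 read in the 2D replicate 2, each against a nearest sample at 0 reads.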

How the results depend on the processing

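Of the 191 named genes that were called, none changed direction under any of the 19 alternatives, and 81 kept their call under every alternative that tested them. Against 341 higher and 176 lower genes, sample weights gave 579 and 278, an adjusted p under 0.05 gave 644 and 334, no limit on the fold change gave 421 and 315, and leaving out both samples numbered 2 gave 397 and 276. Leaving out 1 sample gave 112 to 483 higher and 49 to 287 lower genes, fewest without the 3D replicate 3 and most without the 2D replicate 2. Without the 3D replicate 3 or 4, 107 and 103 of the 191 named calls were lost, without the 2D replicate 4 or the 3D replicate 1 64 and 75, and without any other sample 8 to 48. These fits hold fewer samples. The other alternatives stayed within 1.5 times of both counts, between 239 and 389 higher and between 123 and 213 lower genes. Without the variance trend 52 of the 191 calls were lost, with both samples numbered 2 left out 13, with the robust prior 11, with quantile normalization 10, and with a pseudocount of 1 CPM 4. The replicate block gave 389 higher and 213 lower genes. The correlations of the deviations of same-numbered samples were 0.23, 0.50, 0.07 and 0.01, so the numbers were not shown to pair the samples, and 2 of the 4 numbers matched their own best.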
